A study of Mus musculus with 4 samples.

Results

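RNA of 10 transcription factors that guide or mark the making of astrocytes was compared between cultured cortical astrocytes of CD38 knockout (CD38 KO) and wild-type (WT) mice. The 10 genes are Sox2, Sox8, Sox9, Nfia, Nfib, Nfix, Hopx, Zbtb20, Rfx4 and Glis3, chosen by name, and each stood on a single row among the 55467 gene IDs of every library. The study has 2 CD38 KO and 2 WT libraries. Both genotypes were treated alike: cortices of pups 1 to 3 days old were dissociated, the cells were grown for 14 days in medium with 10% serum, loosely attached cells were shaken off for 12 h, and the remaining cells were replated and collected 5 days later. CD38 breaks down NAD+ at the surface of cells, and the series concerns its role in astrocytes for synapses and social memory. The labels give neither the design of the knockout allele, nor the strain of either genotype, nor whether replicates came from separate animals or cultures, so p-values measure the spread between these samples alone, which may be technical, and the knockout and the strain cannot be told apart.

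Astrocytes arise from radial glia, the stem cells of the developing cortex, after these have made neurons. SOX9 and the nuclear factor I (NFI) proteins switch the progenitors toward glia, cytokine signals through STAT3 together with BMP and Notch signals turn on astrocyte genes such as Gfap, and SOX2 keeps progenitors in cycle and stays on in astrocytes. Most of these factors remain expressed in mature astrocytes, where they serve as markers of the lineage.

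Of the 10 factors, Hopx and Sox9 were called lower in CD38 KO cultures and none was called higher. Hopx was the larger change, at 0.412 times its WT level, and Sox9 was at 0.797 times its WT level. The other 8 were not called, with ratios of CD38 KO to WT between 0.781 for Nfia and 1.19 for Rfx4. A gene was called at an adjusted p under 0.05 in a limma fit of log2(FPKM + 1) to all 13064 genes whose mean level reached 1 FPKM, a unit that scales fragments to transcript length and library depth. All 10 members passed that filter. In the same fit 14.4% of tested genes were called, 8.00% higher and 6.35% lower in CD38 KO, so 2 calls among 10 members is not far from the background. Both CD38 KO libraries lay below both WT libraries for 7 of the 10 members and above them for 2, where 29.5% of all tested genes lay below, 30.4% above and 59.9% on either side. The median log2 change of the 10 was -0.17, against 0.00 over all tested genes. At an unadjusted p under 0.05, 6 members were lower and 1 higher, as were 3955 of all 13064 genes in either direction.

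**Figure D1:**
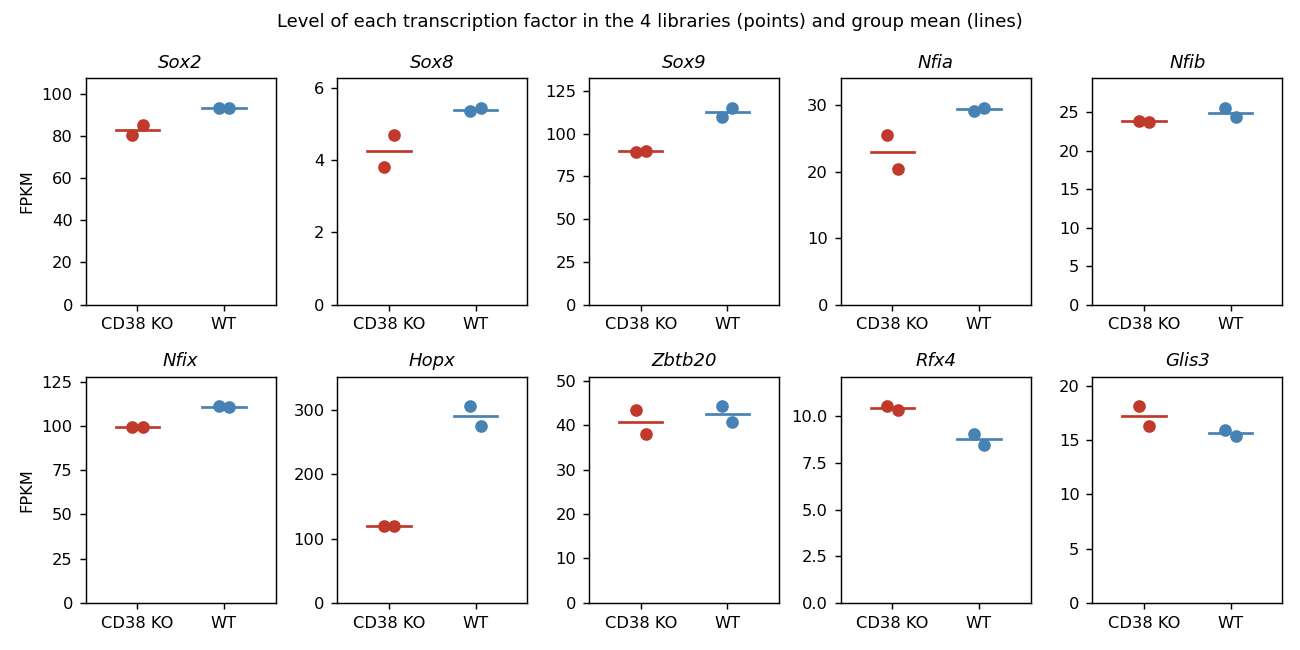
Level in FPKM (vertical axes, each starting at 0) of the 10 transcription factors in the CD38 KO libraries (red) and the WT libraries (blue); points are libraries and lines are group means. Hopx stands at 120 FPKM in both CD38 KO libraries, against 305 and 276 FPKM in WT, while Zbtb20 is the member whose libraries overlap.

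Library quality and labels were checked on the whole table. Depth, recovered from the steps of low FPKM values, was 28973459 and 29048307 fragments in CD38 KO and 26825159 and 28194310 in WT. Across tested genes Pearson's r was 0.985 within CD38 KO, 0.990 within WT and 0.964 to 0.968 between genotypes, as a description, since genes are not independent replicates. Cd38 was at 0.0222 FPKM in each CD38 KO library, against 3.13 and 3.45 FPKM in WT. For the labelled cell type, 21 of 22 listed astrocyte markers had a mean of at least 1 FPKM. Gfap, the astrocyte filament protein, was at 1198 and 1225 FPKM in CD38 KO and at 1390 and 1330 FPKM in WT. Aqp4, Aldh1l1 and Slc1a3 were above 100 FPKM in every library. Others were low: S100b had means of 4.22 FPKM in CD38 KO and 11.0 FPKM in WT, and Ntsr2 2.36 and 4.57 FPKM. Gjb6 was nearly absent, with means of 0.195 FPKM in CD38 KO and 0.488 FPKM in WT. Markers of other cells were also detected. All 16 tested microglia and macrophage markers of 18 listed were higher in CD38 KO (15 in each fit without 1 library), with a median log2 change of 2.31, a summed level of 831 and 738 FPKM in CD38 KO against 123 and 111 FPKM in WT, and none at 0 in all libraries. Of these markers Cx3cr1, Tmem119 and Itgam had WT means of 0.527, 0.494 and 0.844 FPKM, and passed the filter through CD38 KO. The count and the median are thus partly set by the filter. Untested P2ry12 overlapped, at 0.528 and 0.606 FPKM in CD38 KO and 0.243 and 0.633 FPKM in WT. Untested Mrc1 was at 0.258 and 0.218 FPKM in CD38 KO, against 0.0787 and 0.115 FPKM in WT. In such bulk RNA, fewer cells of a type and less RNA per cell cannot be told apart. The part of these other cells in the changes of the 10 factors was not tested.

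HOPX is a small homeodomain protein that does not bind DNA itself and acts through partners. It marks outer radial glia and is kept in astrocytes. Hopx (ENSMUSG00000059325, GRCm38 chromosome 5, 77086988 to 77115121, minus strand) was at 120 FPKM in both CD38 KO libraries, against 305 and 276 FPKM in WT. The CD38 KO libraries were nearly equal, while the WT libraries differed from each other by more, yet the gap between genotypes was far larger than that spread. The group means were 120 ± 0.141 FPKM in CD38 KO and 290.5 ± 21.2 FPKM in WT (SD, n = 2 each), and WT was 2.43 times as high. The limma log2 change was -1.27 (SE 0.06, 95% interval -1.41 to -1.13, adjusted p = 0.000175). Leaving out any single library kept the call, at log2 changes between -1.34 and -1.20 (adjusted p 0.0023 to 0.0159), as did the other 12 settings tried. Within a library, Hopx stood at 1.34 and 1.33 times the FPKM of Sox9 in CD38 KO, against 2.78 and 2.39 times in WT.

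Hopx lies on the chromosome that carries Cd38, 33.2 Mb beyond its end. Among 37 tested genes within 5 Mb of Hopx, Hopx itself included, 6 were called lower, Hopx being 1 of them, and 0 higher (16.2% called). On all of chromosome 5, 89 were higher and 62 lower of 858 tested (17.6% called). The whole table had 14.4% called, 8.00% higher and 6.35% lower. Within 10 Mb of Cd38, 8 genes were higher and 8 lower among 83, with Cd38 itself among the lower. An antisense gene, Hopxos, overlaps Hopx on the other strand and was at 0.229 and 0.274 FPKM in CD38 KO, against 0.513 and 0.507 FPKM in WT. Its mean was under 1 FPKM, so it was not tested, and its level was a small fraction of that of Hopx.

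Hopx is annotated with 3 transcripts, and RefSeq (GRCm38.p6) gives promoter windows, from 250 bases before to 50 after the start, for 2 starts. They are shown because Hopx was the member that changed most. The FPKM values are per gene, so they do not say which start was used. Windows were found for 8 of the 10 members, all but Sox9 and Nfib. Each was searched on both strands for short letter patterns that factors named here are known to bind: ACAAT (SOX), TTGGC (NFI), GTTGCC (RFX), TTCNNNGAA (STAT) and TGGGAA (RBPJ, the Notch effector), as well as TATAAA. Capitals mark the matches, none of which shares a base with another in the windows printed.
Hopx downstream start, chr5:77095218-77095517, minus strand: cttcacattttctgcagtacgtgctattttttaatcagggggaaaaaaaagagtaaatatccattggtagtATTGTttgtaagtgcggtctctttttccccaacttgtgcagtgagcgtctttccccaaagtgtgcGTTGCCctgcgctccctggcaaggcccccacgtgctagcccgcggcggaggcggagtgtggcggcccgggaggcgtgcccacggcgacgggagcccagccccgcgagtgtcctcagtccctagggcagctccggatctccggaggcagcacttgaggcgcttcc
Hopx upstream start, chr5:77115074-77115373, minus strand: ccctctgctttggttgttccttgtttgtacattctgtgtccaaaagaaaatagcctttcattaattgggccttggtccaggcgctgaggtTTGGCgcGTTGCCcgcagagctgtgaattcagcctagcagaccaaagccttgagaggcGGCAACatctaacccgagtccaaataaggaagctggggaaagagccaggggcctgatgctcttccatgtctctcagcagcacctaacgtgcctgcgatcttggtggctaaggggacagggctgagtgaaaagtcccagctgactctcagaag
The downstream window holds 21 CpG and lies inside the span of Hopxos, and the upstream window holds 8 CpG, where the median over all 32851 windows was 7. The downstream window has a SOX pattern on the other strand 179 bases before the start and an RFX pattern 114 bases before it. The upstream window has an NFI pattern 160 bases before the start and RFX patterns 153 and 102 bases before it. Such short patterns are common: 46.7% of all windows hold the NFI pattern, 31.0% the SOX pattern, 25.6% the RBPJ pattern, 13.6% TATAAA, 12.5% the RFX pattern and 8.3% the STAT pattern. The 8 members had 13 windows in all, some members having several. Of these windows 7 held the NFI pattern, 4 the SOX pattern, 3 the RFX pattern, 2 the STAT pattern, 1 the RBPJ pattern and 0 TATAAA. Counted per member, which is not comparable with shares per window, these were 5, 4, 2, 2, 1 and 0 of 8. A match is a description of letters, not a bound site.

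**Figure D2:**
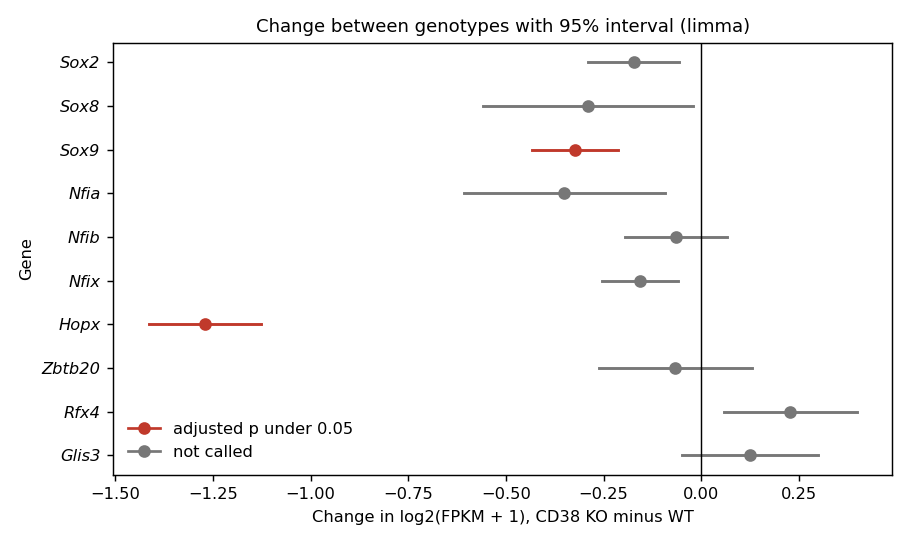
Change in log2(FPKM + 1), CD38 KO minus WT (horizontal axis), of the 10 factors (rows); points are limma estimates and lines their 95% intervals, red where the adjusted p is under 0.05. Hopx at -1.27 stands apart from the other 9, which lie between -0.35 and 0.23.

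Of the SOX factors, the SoxE protein SOX9 starts the gliogenic switch and is a nuclear marker of astrocytes, SOX8 is its close relative, and SOX2 belongs to the SoxB1 group of stem cell factors. Sox9 (ENSMUSG00000000567, chromosome 11, 112782224 to 112787760, plus strand) was at 89.4 and 90.1 FPKM in CD38 KO, against 110 and 115 FPKM in WT. The groups did not overlap. The means were 89.7 ± 0.503 FPKM in CD38 KO and 112.5 ± 3.64 FPKM in WT (SD, n = 2 each), a log2 change of -0.32 (SE 0.04, 95% interval -0.43 to -0.21, adjusted p = 0.00841). The direction held in all 4 fits without 1 library (-0.36 to -0.29), but the call did not: adjusted p was 0.0837 without CD38 KO 1, 0.074 without CD38 KO 2 and 0.0653 without WT 2, against 0.0387 without WT 1. Sox9 has a single annotated transcript, for which its values stand for an estimated 10268 and 10379 fragments in CD38 KO and 11705 and 12871 in WT, a depth at which counting error is small beside the gap between genotypes.

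Sox8 (ENSMUSG00000024176, chromosome 17, 25565892 to 25570686, minus strand), the lowest member, was at 3.80 and 4.70 FPKM in CD38 KO, against 5.35 and 5.44 FPKM in WT. Both CD38 KO values lay below WT, but they differed from each other by more than the nearer of them differed from WT. Its log2 change of -0.29 (SE 0.11, 95% interval -0.56 to -0.02, adjusted p = 0.142) was not called. Sox9 supplied 95.8% and 94.9% of the summed SoxE level (Sox8, Sox9 and Sox10) in CD38 KO and 95.3% and 95.4% in WT. Sox10, the SoxE factor of oligodendrocytes, was at 0.0676 and 0.126 FPKM in CD38 KO and at 0.104 and 0.126 FPKM in WT. The noncoding gene Cerox1, which overlaps Sox8 on the other strand, was at 9.67 and 9.69 FPKM in CD38 KO and at 8.14 and 9.85 FPKM in WT, with overlapping groups.

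Sox2 (ENSMUSG00000074637, chromosome 3, 34650405 to 34652461, plus strand) was at 80.4 and 85.1 FPKM in CD38 KO, against 93.5 and 93.3 FPKM in WT. The groups did not overlap, and the log2 change of -0.17 (SE 0.05, 95% interval -0.29 to -0.06) was not called (adjusted p = 0.0651). The smallest adjusted p over its alternatives was 0.0505, with protein-coding genes alone in the test, and the largest 0.595. Sox2 lies within the span of the long noncoding gene Sox2ot on the same strand, so strand does not part their reads. Sox2ot was at 10.4 and 10.4 FPKM in CD38 KO and at 11.1 and 11.7 FPKM in WT (log2 change -0.12, adjusted p = 0.279). Sox2 made up 94.7% of the SoxB1 sum (Sox1, Sox2 and Sox3) in each CD38 KO library and 95.6% and 94.8% in WT.

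NFI proteins bind DNA as dimers of one another, open chromatin at astrocyte genes and are required in mice for timely gliogenesis. Nfia (ENSMUSG00000028565, chromosome 4, 97772734 to 98118874, plus strand), the earliest of them in the switch to glia, was at 25.5 and 20.4 FPKM in CD38 KO, against 29.2 and 29.6 FPKM in WT. Both CD38 KO values were lower, by unequal amounts. The log2 change of -0.35 (SE 0.10, 95% interval -0.61 to -0.09, adjusted p = 0.0822) was larger than that of Sox9 but not called. It ran from -0.50 without CD38 KO 1, where it was called (adjusted p = 0.0464), to -0.20 without CD38 KO 2. It was also called with replicate numbers crossed as a block (0.0482), a setting chosen after seeing the data. The gene E130114P18Rik overlaps the Nfia start on the other strand and was at 8.85 and 8.06 FPKM in CD38 KO, against 10.4 and 12.0 FPKM in WT (log2 change -0.36, adjusted p = 0.0529).

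Nfix (ENSMUSG00000001911, chromosome 8, 84699876 to 84800344, minus strand), a later-acting NFI factor that also brings neural stem cells to rest, was at 99.3 and 99.7 FPKM in CD38 KO, against 111 and 111 FPKM in WT. The gap was small and the libraries of each genotype close together, with SDs of 0.261 FPKM in CD38 KO and 0.22 FPKM in WT. The log2 change of -0.16 (SE 0.04, 95% interval -0.25 to -0.06, adjusted p = 0.0539) was not called, and passed with protein-coding genes alone in the test (0.0446), a setting chosen after seeing the data. Nfib (ENSMUSG00000008575, chromosome 4, 82290173 to 82705750, minus strand), which acts beside Nfia in the cortex, was at 23.9 and 23.7 FPKM in CD38 KO, against 25.5 and 24.3 FPKM in WT. These values nearly touched, and the 95% interval of the log2 change of -0.06 ran from -0.20 to 0.07 (adjusted p = 0.469), its sign turning to 0.08 when libraries were centred on astrocyte markers. The antisense gene Gm11266 overlaps Nfib and was at 0.875 and 1.22 FPKM in CD38 KO and at 1.21 and 1.35 FPKM in WT, with overlapping groups.

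Nfix was the largest part of the NFI family in both genotypes. It gave 53.4% and 55.3% of the summed FPKM of the 4 NFI genes in CD38 KO and 53.7% and 53.2% in WT. Nfia gave 13.7% and 11.3% in CD38 KO and 14.1% and 14.2% in WT. Nfic, the NFI gene outside the 10, was at 37.4 and 36.5 FPKM in CD38 KO, against 41.1 and 43.6 FPKM in WT, and was not called (log2 change -0.19, adjusted p = 0.0649). The family sum was 186 and 180 FPKM in CD38 KO and 207 and 208 FPKM in WT, with no overlap.

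Zbtb20 encodes a zinc finger repressor that promotes astrocyte formation and hippocampal identity. Zbtb20 (ENSMUSG00000022708, chromosome 16, 42875881 to 43642602, plus strand) was at 43.3 and 37.98 FPKM in CD38 KO, against 44.3 and 40.8 FPKM in WT. It was the member whose groups overlapped, and its log2 change of -0.07 had a 95% interval of -0.26 to 0.13 (adjusted p = 0.622). The sign turned to 0.03 without CD38 KO 2 and to 0.07 with centring on astrocyte markers. Of the genes within its span, the antisense Gm19522 was at 2.51 and 2.25 FPKM in CD38 KO and at 2.75 and 2.82 FPKM in WT (adjusted p = 0.349), and the pseudogene Ndufs5-ps at 1.83 and 2.94 FPKM in CD38 KO and at 0.966 and 2.12 FPKM in WT (adjusted p = 0.339).

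Rfx4 and Glis3 were the members with both CD38 KO libraries above WT. RFX4 is a winged-helix factor known in mice for brain midline patterning, and its transcripts are enriched in astrocytes. Rfx4 (ENSMUSG00000020037, chromosome 10, 84756062 to 84906538, plus strand) was at 10.5 and 10.3 FPKM in CD38 KO, against 9.08 and 8.46 FPKM in WT. The log2 change of 0.23 (SE 0.07, 95% interval 0.06 to 0.40, adjusted p = 0.0863) was not called. The Rfx4 window at its first start is shown as that of the member with the highest ratio of CD38 KO to WT. It carries a SOX pattern 22 bases before the start, an NFI pattern on the other strand 198 bases before it, and 20 CpG.
Rfx4 first start, chr10:84755798-84756097, plus strand: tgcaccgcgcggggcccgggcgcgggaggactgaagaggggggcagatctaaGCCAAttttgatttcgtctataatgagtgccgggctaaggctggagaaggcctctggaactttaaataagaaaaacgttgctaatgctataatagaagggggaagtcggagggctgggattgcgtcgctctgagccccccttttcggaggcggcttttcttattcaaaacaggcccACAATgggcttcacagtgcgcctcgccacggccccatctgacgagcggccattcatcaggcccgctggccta
GLIS3, a Krüppel-like zinc finger protein best known from pancreas and thyroid, is among the factors enriched in astrocytes. Glis3 (ENSMUSG00000052942, chromosome 19, 28258851 to 28680077, minus strand) was at 18.1 and 16.3 FPKM in CD38 KO, against 15.9 and 15.4 FPKM in WT, and its log2 change of 0.13 had a 95% interval of -0.05 to 0.30 (adjusted p = 0.297).

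The order of the 10 levels on the FPKM scale differed little. In CD38 KO it ran Hopx, Nfix, Sox9, Sox2, Zbtb20, Nfib, Nfia, Glis3, Rfx4 and Sox8, from 120 to 4.25 FPKM. In WT it ran Hopx, Sox9, Nfix, Sox2, Zbtb20, Nfia, Nfib, Glis3, Rfx4 and Sox8, from 290.5 to 5.39 FPKM. The neighbours whose libraries overlapped were Nfib and Nfia in CD38 KO and Sox9 and Nfix in WT. Each of these pairs stood in the opposite order in the other genotype. Hopx led in both, with Nfix next at 99.5 FPKM in CD38 KO and Sox9 next at 112.5 FPKM in WT.

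Because astrocyte markers also shifted, the members were set against them. Of 22 listed markers 21 were tested, with 4 higher, 9 lower and a median log2 change of -0.16, close to the median of the 10 factors. Aldoc, a glycolytic aldolase, Glul, glutamine synthetase, and S100b, a calcium-binding protein, were lower at log2 changes of -0.49, -0.47 and -1.22, and Gpr37l1, an orphan receptor, was higher at 0.42. Aqp4, the water channel of astrocyte endfeet, was also lower (log2 change -0.33) and Aldh1l1, a folate enzyme, higher (0.28), and each kept its call in 1 of the 4 fits without 1 library. Glul lost its call without WT 1 and without WT 2 (adjusted p up to 0.0811), S100b without WT 2 (0.0571) and Gpr37l1 without CD38 KO 2 (0.0578). The numbers of higher and lower markers were 1 and 3 without CD38 KO 1, 0 and 4 without CD38 KO 2, 2 and 2 without WT 1, and 1 and 1 without WT 2. They were 8 and 5 with centring on these markers, 3 and 5 with the replicate block, 1 and 5 without a variance trend and 2 and 0 without a filter. Centring makes the mean of these markers equal in all libraries by construction, so its counts of them are no separate check. The summed marker level was 7536 and 7312 FPKM in CD38 KO against 7980 and 7882 FPKM in WT. With each library centred on the mean of these markers, the median of all tested genes moved to 0.14, and calls among all genes were 3232 higher and 479 lower, against 1045 and 830 uncentred. Under that centring Hopx stayed lower at -1.13 (adjusted p = 0.000205) and Sox9 at -0.18 (0.0338), while Rfx4 at 0.37 (0.0159) and Glis3 at 0.27 (0.0442) were called higher. Set against the shifted median of 0.14, Rfx4 and Glis3 lay where they had been uncentred.

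**Figure D3:**
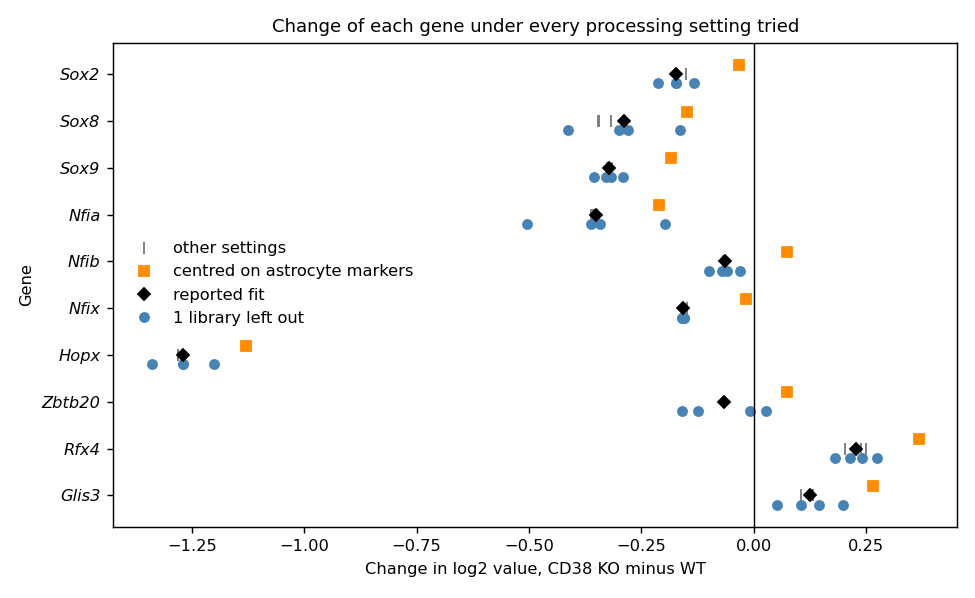
Change in log2 value, CD38 KO minus WT (horizontal axis), of each factor (rows) in the reported fit (diamonds), in fits without 1 library (circles), centred on the astrocyte markers (squares) and under the other settings (ticks). Hopx lies between -1.34 and -1.13 throughout, while Nfib and Zbtb20 cross 0 with centring.

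Genes upstream in the pathway were read next. Beside the counts in this and the following lists, 8.00% of all tested genes were called higher and 6.35% lower. Of 35 listed inducers of gliogenesis, covering gp130 cytokines, BMP and Notch signals and their effectors, 32 were tested, 1 was higher, 6 were lower and 25 were not called, with a median log2 change of -0.07. That balance depended on the setting: 6 were higher and 0 lower by limma with centring on the astrocyte markers, 1 was higher and 2 lower without a variance trend, and 0 were called in either direction with the replicate block or without a filter. Before adjustment, p was under 0.05 for 3 higher and 11 lower inducers in the reported fit. Lif, a cytokine that drives astrocyte differentiation through STAT3, was the higher gene, at 15.1 ± 0.887 FPKM in CD38 KO and 10.3 ± 0.966 FPKM in WT (SD, n = 2 each). Stat3 itself was lower, at 131 ± 2.23 FPKM in CD38 KO and 154 ± 0.391 FPKM in WT. Bmpr2, a BMP receptor, was at 15.2 FPKM in CD38 KO and 19.2 FPKM in WT, and Notch1 was at 26.2 FPKM in CD38 KO and 31.5 FPKM in WT. The other lower genes were the cytokine genes Cntf and Ctf1 and the Notch ligand Jag1. In fits without 1 library, none of these 6 stayed called (adjusted p up to 0.192), and Lif kept its call in the fit without WT 1 (adjusted p = 0.0439) but in none of the other 3. The Notch effector Hes1 was at 42.3 and 30.7 FPKM in CD38 KO, against 26.8 and 26.8 FPKM in WT (adjusted p = 0.115), and passed when CD38 KO 2 was left out (0.0254).

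Among 36 other factors of glia and their progenitors, not all of them transcription factors, 33 were tested. Of these, 7 were lower, 0 were higher by limma and the median log2 change was -0.12. At an unadjusted p under 0.05, 15 were lower and 1 higher. Srebf1, which drives lipid synthesis genes, fell to 136 FPKM in CD38 KO, against 222 FPKM in WT, and Zfp36l1, an RNA-binding protein that destabilises transcripts, to 76.2 FPKM in CD38 KO, against 97.6 FPKM in WT. Gli3, a mediator of Hedgehog signals, was at 10.7 FPKM in CD38 KO and 15.98 FPKM in WT. Olig2 and Dbx2, named after their values were seen, were also lower. Srebf1 was called in all 4 fits without 1 library, and the number of lower factors was 2 without CD38 KO 1, 2 without CD38 KO 2, 5 without WT 1 and 3 without WT 2. Without a filter it was 4.

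Relatives of the members were read in the same way. Of 17 other SOX genes 8 were tested and 0 called by limma, with 2 lower at an unadjusted p under 0.05 and a median log2 change of -0.13. The smallest p belonged to Sox6, at 31.6 and 31.2 FPKM in CD38 KO, against 37.8 and 35.0 FPKM in WT (adjusted p = 0.067), and Sox12, at 3.15 and 3.24 FPKM in CD38 KO, against 3.92 and 4.23 FPKM in WT (0.109). Of 13 other NFI, RFX, GLIS and GLI genes 9 were tested, and Gli3 was lower while 8 were not called. Its call ended without CD38 KO 1, without CD38 KO 2 and without WT 2 (adjusted p up to 0.0668).

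**Figure D4:**
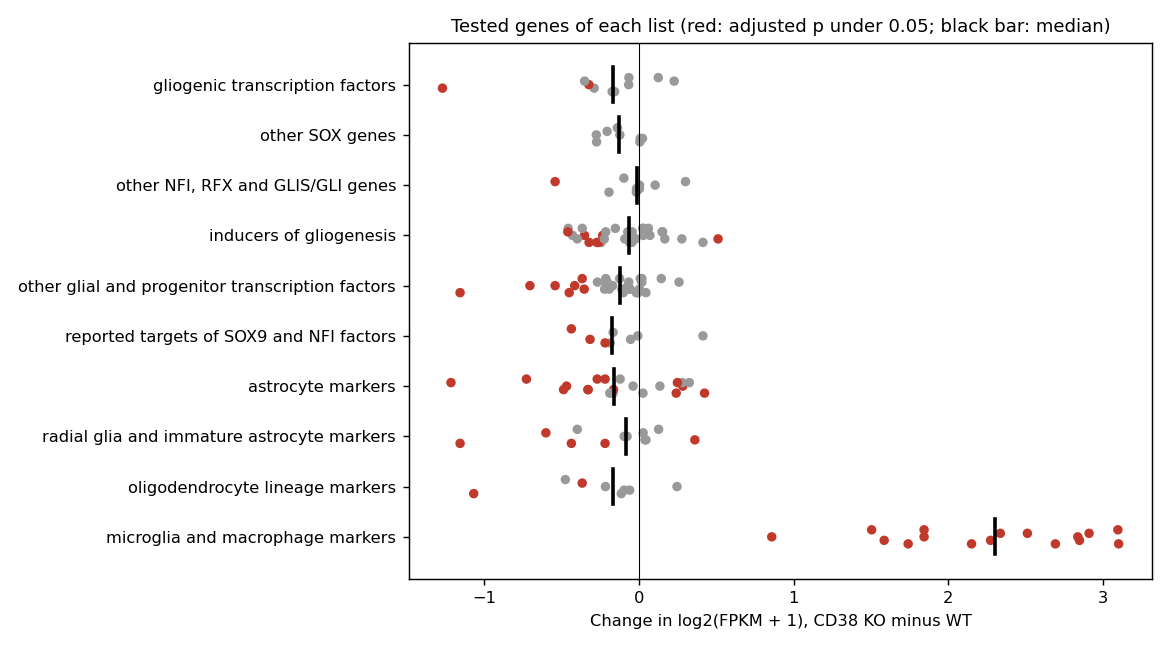
Change in log2(FPKM + 1), CD38 KO minus WT (horizontal axis), of the tested genes (points) of each list (rows), red where the adjusted p is under 0.05, with the list median as a black bar. The 10 gliogenic factors have a median of -0.17 and the microglia and macrophage markers one of 2.31.

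Genes reported downstream of SOX9 and NFI factors were read for the same comparison. Of 10 listed, 8 were tested, 3 were lower, 0 higher by limma and 5 not called, with a median log2 change of -0.18. At an unadjusted p under 0.05, 4 were lower and 1 higher. Fabp7, a fatty acid binding protein of radial glia, was at 537 ± 34.6 FPKM in CD38 KO and 727 ± 4.76 FPKM in WT (SD, n = 2 each), Mmd2, a membrane protein, at 59.0 FPKM in CD38 KO and 73.6 FPKM in WT, and Slc1a3, the glutamate transporter GLAST, at 384 FPKM in CD38 KO and 446 FPKM in WT. Without 1 library these calls thinned to 1, 1, 0 and 0 lower without CD38 KO 1, CD38 KO 2, WT 1 and WT 2, and Hes1 became the 1 higher gene without CD38 KO 2. With centring on the astrocyte markers 1 was lower and 1 higher, and without a filter 0 were called. Among radial glia and immature astrocyte markers, 4 of 12 were lower and 1 higher, and between 1 and 2 were lower and 0 higher in the fits without 1 library. With centring 2 were lower and 2 higher, with the replicate block 2 were lower, and without a filter 1 was lower. Slc1a3, Fabp7, Gli3, Olig2 and Hes1 each stand in more than 1 of these lists, so the lists are not independent of each other.

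Markers of further cell types were read beside them. Of 14 oligodendrocyte lineage markers 8 were tested and 2 were lower, Pdgfra at 1.42 FPKM in CD38 KO against 4.11 FPKM in WT and Olig2 at 15.0 FPKM in CD38 KO against 19.5 FPKM in WT. Their counts of lower genes without 1 library were 1 without WT 1 and 0 in the other such fits, 1 with centring, and 0 with the replicate block or without a filter. The summed level of the list was 168 and 180 FPKM in CD38 KO and 206 and 200.0 FPKM in WT. Most of that sum was Olig1, at 112 and 125 FPKM in CD38 KO and 141 and 134 FPKM in WT. The 6 untested markers, Mog and Mobp among them, had means of at most 0.37 FPKM. Of 8 proliferation markers 6 were tested and 2 were lower, Top2a and Birc5, both lost in every fit without 1 library, with the replicate block and without a filter, and the sums were 40.7 and 40.4 FPKM in CD38 KO against 45.5 and 49.9 FPKM in WT. Of 12 neuronal markers 5 were tested. Stmn2 was higher, at 55.5 FPKM in CD38 KO and 29.7 FPKM in WT, and Gad1 lower, at 43.9 and 76.4 FPKM. The 7 untested neuronal markers, Rbfox3, Snap25, Syt1 and Dcx among them, had means of at most 0.242 FPKM. Of 6 ependymal markers 4 were tested, with Foxj1 and Pifo higher and Rsph1 lower. Gad1 lost its call without CD38 KO 2 (adjusted p = 0.0581), Pifo without either CD38 KO library (up to 0.116) and Rsph1 without any 1 library (up to 0.122). Limma called 0 of 6 tested fibroblast markers, with 1 at an unadjusted p under 0.05, although 1 was higher with centring and 3 with the crossed block. No endothelial marker had a mean of 1 FPKM over all libraries. The highest of these, Pecam1, an adhesion protein of vessel walls, was at 1.39 and 1.10 FPKM in CD38 KO and at 0.542 and 0.214 FPKM in WT, and was not tested. The part of these cells in the changes of the 10 factors was not tested.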

How the data were processed

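RNA of cultured astrocytes was sequenced in 2 CD38 KO and 2 WT libraries. Libraries were stranded and polyA-selected, per the labels' protocols, and GRCm38 is the build in the submitters' processing notes, which list STAR 2.7.0f, bcl2fastq 2.17 and Cufflinks 2.2.1 as tools. Per the file headers, the authors deposited FPKM per gene. For the annotation release, the strand setting and scaling between libraries, the sources used here give nothing. Without the strand setting, reads of Nfia, Nfib, Sox8, Hopx and Zbtb20 cannot be told apart from those of their antisense neighbours. The same holds for Nfix (Lyl1 and G430095P16Rik, up to 0.455 FPKM), Glis3 (D930032P07Rik, up to 0.0396 FPKM) and Rfx4 (Gm24226, at 0 FPKM in every library). The positions in the files were wider than the gene for Sox2, Sox8, Nfia and Glis3, so positions were taken from GENCODE M21 (GRCm38), which matched 55226 of 55467 IDs. Where a symbol stood on several IDs, that of highest mean FPKM was used.

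Depth was recovered from 3168 to 3240 low values per library in genes with 1 transcript longer than 600 bases: 91.8% to 92.5% of values below 10 fragments fell within 0.1 of a whole number. Such depth bears on counting error only.

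Values were taken as log2(FPKM + 1) and fitted with limma 3.58.1 (R 4.3.3), two-sided, with genotype as the only term, a variance trend and Benjamini-Hochberg adjustment over all 13064 genes whose mean level reached 1 FPKM, members and Cd38 kept. Fold changes on this scale understate those of low genes, and ratios are of mean FPKM. The fit was tested on simulated data. It recovered 37.3% of simulated log2 changes of 0.5, 76.4% of those of 1 and 91.5% of those of 2. Among the simulated calls 3.12% were false. Each simulation changed 200 genes and pooled genes of all levels, while 14.4% of tested genes were called in the data. These shares are therefore not those of the members. Changes as small as those of the uncalled members may still be missed. Lists are described by counts and medians, with no set test. Python 3.11.15 did the rest.

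The members, lists and tests were chosen with earlier results of these data known. Named genes are the 10 members, Cd38, genes overlapping a member, 4 astrocyte markers, and from other lists up to 4 called genes of smallest p (up to 2 where none was called), other names being chosen after their values were seen. Alternatives were other added values (0.1 and 0.5), a stricter filter of 5 FPKM or none, quantile and median-of-ratios scaling, centring on the astrocyte markers, no trend, robust moderation, replicate number as a block, and each library left out, the lone library of a genotype then being assumed to vary like the other genotype. A crossed block and protein-coding genes only were chosen after seeing the data. Some results for single genes of the other lists are not reported here.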

Additional observations from a re-analysis of the deposited data

How the results depend on the processing

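Hopx kept its direction and its call under all 16 alternatives (adjusted p up to 0.0168) and Sox9 under 13, its call ending without CD38 KO 1, without CD38 KO 2 and without WT 2. The count of lower members was 2, 3 with a crossed replicate block (Nfia added) and with protein-coding genes only (Nfix added), 2 in the other settings with all libraries, and 1 to 2 in the fits without 1 library, while the count of higher members was 0, and 2 with centring on the astrocyte markers. The sign turned for Nfib (0.0752) and Zbtb20 (0.0739) with that centring, and for Zbtb20 (0.0269) without CD38 KO 2, its range without 1 library being -0.159 to 0.0269. Over all genes, the counts of 1045 higher and 830 lower became 430 and 312 without a filter, where 26654 genes were tested, 3232 and 479 with centring, 610 and 427 with the replicate number as a block, and 306 to 458 and 225 to 284 without 1 library, which leaves fewer samples. The cause of the other shifts was not tested. Deviations of same-numbered libraries from their group means had r = -0.161 across genes. With 2 libraries per genotype these deviations mirror each other, so r cannot exclude pairing. The reported fit did not pair libraries by number. A block with crossed numbers called 1102 higher and 859 lower genes. Of the counts for the other lists, 268 of 312 stayed within 1.5 times under settings with all libraries and 56 of 104 without 1 library.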
